A study of Mus musculus with 7 samples.

Results

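The 10 genes described here are markers of the principal neurons of 2 hippocampal fields: Prox1, Dsp, Tdo2, Lct, Zbtb20 and Trpc6 for granule cells of the dentate gyrus, and Wfs1, Spink8, Fibcd1 and Neurod6 for pyramidal cells of CA1. They were found by gene symbol, 10 of 10, among the 48526 genes of the deposited table, and the rule uses no measured value. Brain RNA came from 7 libraries of mice aged 24 months that carry the V1S and SV2 constructs, which the labels tie to the fluorescent protein Venus and the series title to α-synuclein complementation. The 4 on libraries bear the label glucose, and the 3 off libraries bear the label Dox, for doxycycline. Both groups carry the same constructs, so a mouse without them is in neither group, and doxycycline cannot be told apart from the state of the constructs. No source used here gives the promoter that drives the constructs, the brain region or whether each library is 1 animal, so p-values measure the spread between these libraries only.

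Granule cells of the dentate gyrus receive input from the entorhinal cortex and send mossy fibers to CA3, whose axons in turn reach the pyramidal cells of CA1. Prox1 is the homeobox transcription factor that keeps granule cells from taking a pyramidal fate, and Zbtb20 is a zinc finger repressor needed for the formation of the hippocampal fields. In brain, Zbtb20 is also made by astrocytes, Neurod6 by neocortical pyramidal neurons, and Wfs1 in several other regions, so in bulk RNA these genes mark the hippocampus only in part. The split into dentate and CA1 markers was set for this report and was not tested. Zbtb20 is counted with the dentate markers but does not mark the dentate gyrus alone.

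The promoters of 6 markers are shown, since the results turn on them: the 4 dentate markers whose on and off libraries did not overlap (Zbtb20, Prox1, Tdo2 and Dsp), and 2 CA1 markers that ordered the libraries in nearly the same way (Wfs1 and Fibcd1). Each run is the 250 bases before the start in the RefSeq promoter table (GRCm38.p6), 5′ to 3′ on the gene's strand. Capitals mark the E-box CANNTG, the motif class of basic helix-loop-helix factors such as Neurod6; it reads the same on both strands.
Zbtb20 promoter: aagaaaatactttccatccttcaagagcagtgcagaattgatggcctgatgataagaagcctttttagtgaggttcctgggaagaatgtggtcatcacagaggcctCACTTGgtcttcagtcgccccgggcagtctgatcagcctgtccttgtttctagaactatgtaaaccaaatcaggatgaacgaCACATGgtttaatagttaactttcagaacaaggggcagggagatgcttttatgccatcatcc
Prox1 promoter: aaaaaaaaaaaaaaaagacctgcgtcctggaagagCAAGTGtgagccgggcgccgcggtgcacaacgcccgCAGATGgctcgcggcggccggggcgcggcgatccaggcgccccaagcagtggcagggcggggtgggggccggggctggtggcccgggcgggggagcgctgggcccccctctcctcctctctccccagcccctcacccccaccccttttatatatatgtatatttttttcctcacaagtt
Tdo2 promoter: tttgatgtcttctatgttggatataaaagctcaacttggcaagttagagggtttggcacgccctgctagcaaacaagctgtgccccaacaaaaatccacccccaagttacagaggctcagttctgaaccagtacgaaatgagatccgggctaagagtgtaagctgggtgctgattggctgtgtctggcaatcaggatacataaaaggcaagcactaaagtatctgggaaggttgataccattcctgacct
Dsp promoter: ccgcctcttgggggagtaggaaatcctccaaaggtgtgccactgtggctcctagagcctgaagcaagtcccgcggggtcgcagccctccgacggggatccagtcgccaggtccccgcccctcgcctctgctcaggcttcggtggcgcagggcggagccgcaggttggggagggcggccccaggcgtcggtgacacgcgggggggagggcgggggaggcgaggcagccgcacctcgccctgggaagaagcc
Wfs1 promoter: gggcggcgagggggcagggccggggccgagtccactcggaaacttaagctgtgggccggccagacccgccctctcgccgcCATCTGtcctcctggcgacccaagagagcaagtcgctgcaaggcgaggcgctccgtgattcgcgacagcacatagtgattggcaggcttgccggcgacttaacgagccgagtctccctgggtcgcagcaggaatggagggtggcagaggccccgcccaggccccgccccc
Fibcd1 promoter: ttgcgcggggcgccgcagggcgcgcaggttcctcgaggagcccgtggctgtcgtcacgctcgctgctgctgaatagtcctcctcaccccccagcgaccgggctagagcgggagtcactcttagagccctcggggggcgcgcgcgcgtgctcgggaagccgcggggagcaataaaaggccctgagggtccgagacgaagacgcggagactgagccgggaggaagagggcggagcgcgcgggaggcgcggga
The runs lie at chr16:43247034-43247283 on the plus strand for Zbtb20, chr1:190170828-190171077 on the minus strand for Prox1, chr3:81975729-81975978 on the minus strand for Tdo2, chr13:38151044-38151293 on the plus strand for Dsp, chr5:36988983-36989232 on the minus strand for Wfs1 and chr2:31846006-31846255 on the minus strand for Fibcd1. The motif occurred 2 times in the Zbtb20 run, 2 times in that of Prox1 and 1 time in that of Wfs1, and those of Tdo2, Dsp and Fibcd1 held none. The table lists a further Prox1 start, whose run at chr1:190169516-190169765 held 0 motifs and had a GC content of 56.0%; the Prox1 run shown is that of the first listed start. The motif was present in 66.2% of the 32851 promoter windows of this length in the table, so its presence sets none of these genes apart. The Zbtb20 start lies inside the annotated gene, which has further starts upstream. GC content was 44.8% in the Zbtb20 run and 46.4% in that of Tdo2, against 64.8% for Prox1, 69.6% for Wfs1, 71.6% for Fibcd1 and 72.4% for Dsp.

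All 10 markers were measured in every library, with mean rlog values (regularized logarithms on the log2 scale) between 6.23 and 12.41, well above the minimum mean of 3 set for testing. Per kilobase of the longest annotated transcript, the mean level on the log2 scale was highest for Neurod6 (9.91 to 10.17 over the 7 libraries) and Wfs1 (9.63 ± 0.085, SD over 7 libraries), followed by Zbtb20 (7.66 ± 0.19), Prox1 (7.58 ± 0.08), Fibcd1 (7.23 ± 0.12), Spink8 (6.61 ± 0.04) and Trpc6 (6.12 ± 0.09). The lowest levels per kilobase were those of Lct (4.69 ± 0.06), Tdo2 (4.58 ± 0.09) and Dsp (4.13 ± 0.10). The libraries overlapped between Zbtb20 and Prox1 and between Lct and Tdo2, and no other neighbours in this order overlapped. The order depends on the transcript taken for each gene, and for Zbtb20 the longest has 26901 bases. Markers of other regions were measured too, with mean rlog values of 10.06 to 13.12 for 6 cerebellar genes, 9.05 to 13.15 for 8 striatal genes and 6.14 to 10.60 for 6 olfactory bulb genes, so these libraries are not of hippocampus alone.

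One library, on replicate 1, stood apart from its group. On the first principal component of all 17896 tested genes (47.7% of the variance) it had a score of -4.10, where on replicates 2 to 4 had 7.19 to 9.15 and off replicates 1 to 3 had -8.64 to -3.56. Across genes, which are not independent replicates, deviations from the gene mean rose with transcript length in on replicates 2 to 4 (Spearman's rho of 0.274 to 0.291) and fell with it in the off libraries (-0.316 to -0.233), with -0.0592 in on replicate 1. Results are given with all libraries, and for the markers, where the call differs, also without on replicate 1 or after a correction that takes out, library by library, the trend with length and GC content.

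The comparison asks whether the level of these markers differs between the on and off libraries. In it, doxycycline cannot be told apart from the state of the constructs. Zbtb20 was the 1 marker of 10 that passed the test, and it was higher in on. Prox1 and Tdo2 were also higher in every on library than in any off library, and Dsp was lower in every one, but none of the 3 passed. The 4 CA1 markers all had differences below 0, 0 of them passed by limma and 1 (Fibcd1) had an unadjusted p under 0.05. Over all 17896 genes tested with limma, 2.6% passed at an adjusted p under 0.05 (0.816% higher and 1.79% lower in on), so 1 of 10 is not a count from which anything can be read about the markers as a set. For 4 of the 10 markers the on and off values were fully separated (3 higher and 1 lower in on), as they were for 15.2% of all tested genes (7.13% higher and 8.09% lower). At an unadjusted p under 0.05, limma gave 5 of the 10 markers and 20.7% of all tested genes. The median difference was -0.05 over the 10 markers and 0.00 over all tested genes. In bulk RNA, fewer cells of a type and less RNA per cell cannot be told apart.

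**Figure D1:**
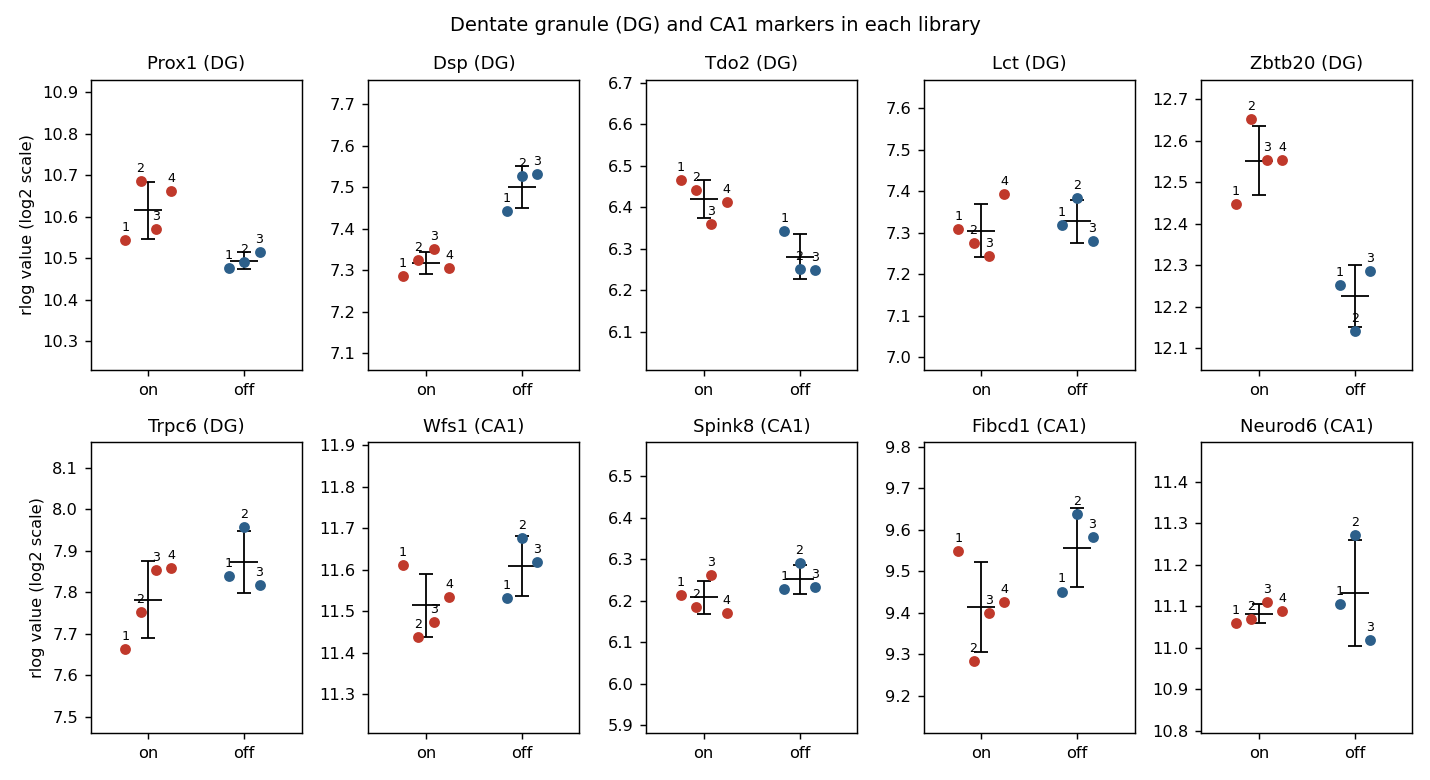
Values of the 10 markers in each library (rlog, log2 scale) for the 4 on libraries (red, left) and the 3 off libraries (blue, right), with replicate numbers above the points, group means as bars and SD as whiskers. Every panel spans 0.7 log2 units. Zbtb20, Prox1 and Tdo2 lie higher in on with no overlap, Dsp lies lower in on with no overlap, and off replicate 2 is the highest library in all 4 CA1 panels.

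Zbtb20 lies on chromosome 16 at 42875881 to 43642602, plus strand. Its values were 12.45, 12.65, 12.55 and 12.55 in on replicates 1 to 4, against 12.25, 12.14 and 12.28 in off replicates 1 to 3. The lowest on library, replicate 1, was still above the highest off library, replicate 3. Zbtb20 rose by 0.33 ± 0.05 on the log2 scale (SE, limma adjusted p = 0.00572), or 1.25-fold, with means of 12.55 ± 0.08 in on (SD, n = 4) and 12.23 ± 0.07 in off (SD, n = 3). It passed with any 1 library left out, with differences between 0.28 and 0.36 and limma adjusted p-values between 0.000156 and 0.0477, the weakest without off replicate 2. After removal of the trend with transcript length and GC content the difference was 0.12 ± 0.03 (SE) and did not pass (limma adjusted p = 0.107), and without any filter on low values the limma adjusted p was 0.13. Its longest annotated transcript is longer than those of 99.6% of the tested genes. The correction used that length, and which transcript these libraries hold is not known. The part of length in the result was not tested beyond this correction. All 5 genes of nuclear RNAs had differences above 0 and 2 passed, Snhg14 (0.29 ± 0.05, SE, limma adjusted p = 0.0115) and Malat1 (0.61 ± 0.11, SE, limma adjusted p = 0.0159). Their mean deviations were -0.10 to 0.25 in on and -0.34 to -0.08 in off. After the correction Snhg14 was at 0.17 and did not pass (limma adjusted p = 0.0691), while Malat1 was at 0.54 and passed (limma adjusted p = 0.0428). Without off replicate 2 neither passed, with Snhg14 at 0.26 and Malat1 at 0.60 (limma adjusted p = 0.0911 and 0.094). Without on replicate 1, 4 of the 5 were called, all higher in on. The part of these genes in the Zbtb20 result was not tested. Of 9 annotated genes that overlap Zbtb20, 1 was expressed enough to test, the processed pseudogene BC002163 on the same strand with a mean value of 3.95.

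Since astrocytes also make Zbtb20, their markers are given beside it, and their part in the Zbtb20 result was not tested. Of 8 astrocyte genes 0 passed by limma and 0 had an unadjusted p under 0.05, with a median difference of -0.01 and mean deviations of -0.06 to 0.07 in on and -0.03 to 0.02 in off. The smallest p in that list was that of the glutamate transporter gene Slc1a2, with a difference of 0.10 ± 0.05 (SE, limma adjusted p = 0.259). For 1 of the 8, Slc1a3 (difference 0.05), every on library lay above every off library, as for 7.13% of all tested genes.

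Prox1 lies on chromosome 1 at 190118035 to 190170714, minus strand. Its values were 10.54, 10.69, 10.57 and 10.66 in on replicates 1 to 4, against 10.48, 10.49 and 10.52 in off replicates 1 to 3. The groups did not overlap, but the gap between on replicate 1 and off replicate 3 was small beside the spread of the on libraries. The difference was 0.12 ± 0.04 (SE) and did not pass (limma adjusted p = 0.139). Without on replicate 1 it was 0.15 ± 0.04 and passed (SE, limma adjusted p = 0.0269), and after the length and GC correction it was 0.04 ± 0.03 (SE, limma adjusted p = 0.597). Its transcript is longer than those of 94.2% of the tested genes. An antisense gene, Prox1os, overlaps it with a mean value of 5.96, and no source used here says whether the counting used strand, so reads of the pair cannot be told apart.

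Tdo2, on chromosome 3 at 81957090 to 81976202, minus strand, encodes tryptophan dioxygenase, which opens the kynurenine pathway of tryptophan breakdown and is known above all from liver. Its values were 6.47, 6.44, 6.36 and 6.41 in on replicates 1 to 4, against 6.34, 6.25 and 6.25 in off replicates 1 to 3. The on libraries all lay above the off libraries, by a small margin between on replicate 3 and off replicate 1. The difference was 0.14 ± 0.05 (SE, limma adjusted p = 0.146). It was 0.10 ± 0.05 after the length and GC correction (SE, limma adjusted p = 0.318) and did not pass with any 1 library left out (limma adjusted p of 0.127 to 0.384).

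Dsp, on chromosome 13 at 38151294 to 38198577, plus strand, encodes desmoplakin, the plaque protein that ties intermediate filaments to desmosomes. Its values were 7.29, 7.32, 7.35 and 7.31 in on replicates 1 to 4, against 7.44, 7.53 and 7.53 in off replicates 1 to 3. The groups were clearly separated and the on libraries lay close together. The difference was -0.18 ± 0.05 (SE, limma adjusted p = 0.0769), with a 95% interval from -0.30 to -0.07. It passed without on replicate 1 (-0.17 ± 0.06, SE, limma adjusted p = 0.0435), with array weights (-0.17, limma adjusted p = 0.0389, 12.4% of all tested genes called) and without the variance trend (-0.18, limma adjusted p = 0.0493, 1.32% called), and missed the threshold with any other single library left out. Its transcript is longer than those of 96.9% of the tested genes, and 2.64% of the tested genes had a lower difference than Dsp. After the length and GC correction the difference was at -0.21 ± 0.05 (SE, limma adjusted p = 0.077).

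Desmoplakin is also made by cells of the meninges, so genes listed for meningeal fibroblasts are given beside it. Whether fibroblasts are the meningeal cells that make it here is not known, and their part in the Dsp result was not tested. Of 6 meningeal fibroblast genes 5 had differences above 0, with a median of 0.07 and mean deviations of -0.01 to 0.11 in on and -0.05 to -0.0038 in off. By limma 0 of the 6 passed and 1 had an unadjusted p under 0.05, the smallest p being that of decorin, Dcn (adjusted p = 0.232). Of 6 choroid plexus genes 0 passed by limma and 0 had an unadjusted p under 0.05, with a median of -0.02 and the smallest p for the water channel gene Aqp1 (adjusted p = 0.589).

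The on and off libraries overlapped in Lct and Trpc6. Lct, on chromosome 1 at 128284756 to 128328318, encodes lactase, the milk sugar enzyme of the gut, and ranged over 7.24 to 7.39 in on and 7.28 to 7.38 in off. Its difference was -0.02 ± 0.06 (SE, limma adjusted p = 0.862), with a 95% interval from -0.14 to 0.10. Trpc6, on chromosome 9 at 8544142 to 8680741, encodes a cation channel gated by diacylglycerol. It ranged over 7.66 to 7.86 in on and 7.82 to 7.96 in off, and its difference was -0.09 ± 0.06 (SE, limma adjusted p = 0.441), with a 95% interval from -0.22 to 0.04. The 6 dentate markers thus hold 3 differences above 0 and 3 below it.

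**Figure D2:**
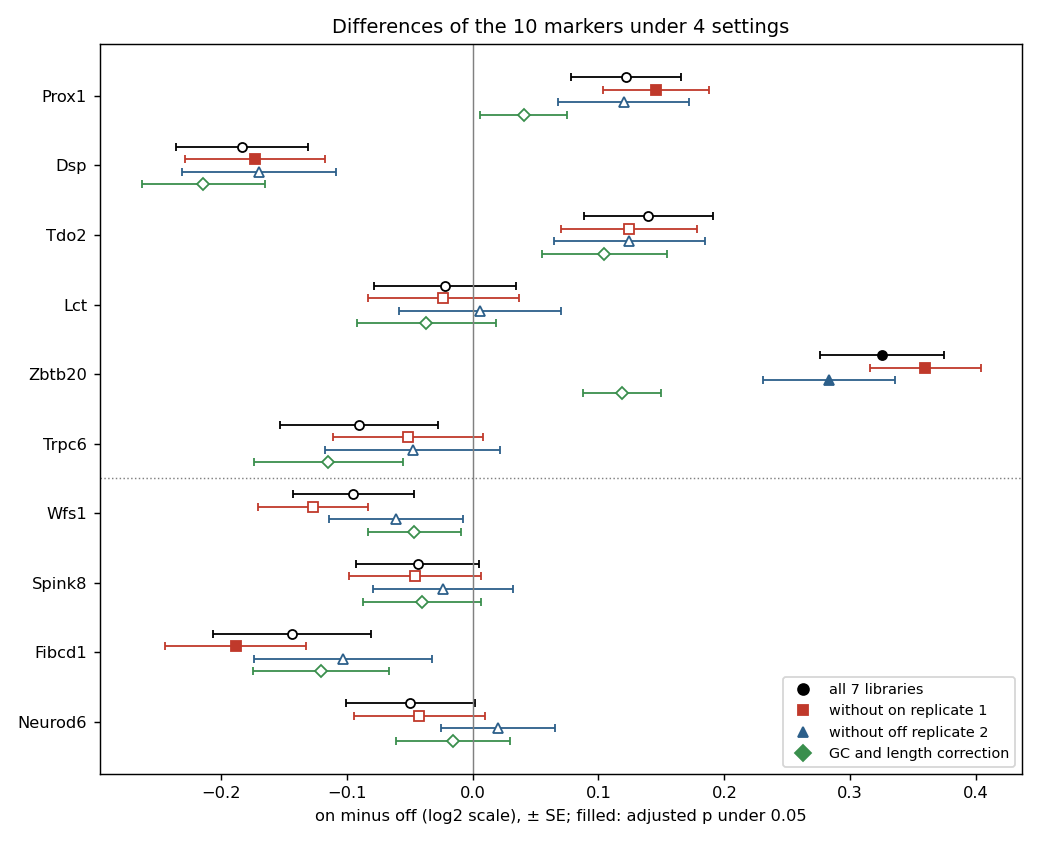
Difference, on minus off, of each marker on the log2 scale with its SE, in all 7 libraries (circles), without on replicate 1 (squares), without off replicate 2 (triangles) and after the length and GC correction (diamonds). Filled symbols passed at an adjusted p under 0.05; dentate markers are above the dotted line and CA1 markers below it. Zbtb20 lies at 0.12 after the correction, against 0.33 without it, and Dsp lies between -0.21 and -0.17 in all 4.

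Among CA1 markers, Wfs1 encodes wolframin, a membrane protein of the endoplasmic reticulum, on chromosome 5 at 36966104 to 36989205. Its values were 11.61, 11.44, 11.47 and 11.53 in on replicates 1 to 4, against 11.53, 11.68 and 11.62 in off replicates 1 to 3. Fibcd1 encodes a membrane receptor that binds acetylated sugars, on chromosome 2 at 31813290 to 31846005. Its values were 9.55, 9.28, 9.40 and 9.43 in on replicates 1 to 4, against 9.45, 9.64 and 9.58 in off replicates 1 to 3. Both genes had off replicate 2 highest, then off replicate 3 and on replicate 1, and on replicate 2 lowest, and the groups overlapped in both. The difference was -0.09 ± 0.05 for Wfs1 (SE, limma adjusted p = 0.279) and -0.14 ± 0.06 for Fibcd1 (SE, limma adjusted p = 0.214). Without on replicate 1, Fibcd1 passed at -0.19 ± 0.06 (SE, limma adjusted p = 0.0307) and Wfs1 was at -0.13 ± 0.04 (SE, limma adjusted p = 0.0569). Without off replicate 2 their differences were -0.10 and -0.06. The Fibcd1 transcript has a higher GC content than 94.0% of the tested genes, and that of Wfs1 than 89.6%.

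Neurod6, on chromosome 6 at 55677822 to 55681263, encodes a basic helix-loop-helix transcription factor of pyramidal neurons. Its values were 11.06, 11.07, 11.11 and 11.09 in on replicates 1 to 4, against 11.11, 11.27 and 11.02 in off replicates 1 to 3. The on libraries lay close together, inside the range of the off libraries. The difference was -0.05 ± 0.05 (SE, limma adjusted p = 0.624), with a 95% interval from -0.16 to 0.06, and without off replicate 2 it was 0.02. Spink8, on chromosome 9 at 109812280 to 109826633, encodes a Kazal-type inhibitor of serine proteases. It ranged over 6.17 to 6.26 in on and 6.23 to 6.29 in off, with a difference of -0.04 ± 0.05 (SE, limma adjusted p = 0.652) and a 95% interval from -0.15 to 0.06.

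Off replicate 2 held the highest value of all 4 CA1 markers, and of 18.7% of all tested genes. The mean deviation of the CA1 markers was 0.13 in off replicate 2, against -0.01 and 0.02 in the other off libraries and -0.10 to 0.02 in on. Striatal genes had the same library highest, at 0.21 against 0.00 and 0.02 in the other off libraries and -0.12 to -0.02 in on. Off replicate 2 was also highest for microglia genes (0.12), other CA1 genes (0.09), CA3 genes (0.07) and other dentate granule cell genes (0.04). A different library was highest in every other list, the dentate markers among them. The median difference of the CA1 markers was -0.07 with all libraries and -0.04 without off replicate 2. For the dentate markers the mean deviation was -0.02 to 0.05 in on and -0.03 to -0.02 in off. Whether dentate and CA1 markers differ from each other in their response was not tested.

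**Figure D3:**
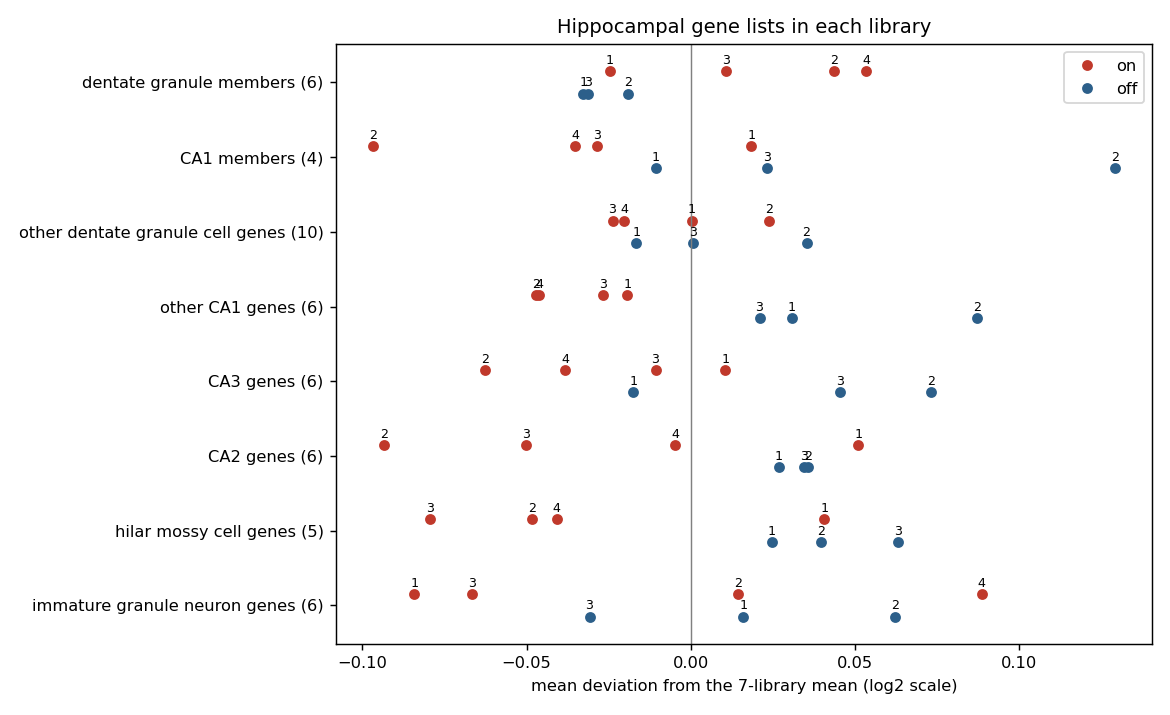
Mean deviation of each hippocampal gene list from the 7-library mean of its genes (log2 scale), for on (red, upper row of each pair) and off libraries (blue, lower row), with replicate numbers above the points and the number of genes in brackets. Off replicate 2 lies at 0.13 for the CA1 markers, and on and off libraries separate only for the other CA1 genes (-0.05 to -0.02 in on, 0.02 to 0.09 in off).

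Other genes of the same cells were taken from lists set by cell type, with earlier results of these data known. Of 10 other dentate granule cell genes, 1 passed, lower in on, and the median was 0.04. That gene was C1ql2, a secreted C1q-like protein of mossy fiber synapses, which fell by 0.36 ± 0.06 (SE, limma adjusted p = 0.0108). Its values were 7.69, 7.55, 7.50 and 7.51 in on replicates 1 to 4, against 7.85, 7.94 and 7.97 in off replicates 1 to 3, with no overlap. Of 6 other CA1 genes, 1 passed, also lower, with a median of -0.06: the POU transcription factor gene Pou3f1, which fell by 0.35 ± 0.06 (SE, limma adjusted p = 0.0116). Its values were 9.31, 9.47, 9.22 and 9.21 in on replicates 1 to 4, against 9.65, 9.69 and 9.61 in off replicates 1 to 3. C1ql2 and Pou3f1 missed the threshold without off replicate 2, where their differences were -0.35 and -0.33 (limma adjusted p = 0.0778 and 0.0911), and after the correction, where they were at -0.23 and -0.26 (limma adjusted p = 0.077 and 0.0786).

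Among the other hippocampal cells, 1 of 6 CA3 genes passed, the Bcl2 family gene Bok, which fell by 0.26 ± 0.055 (SE, limma adjusted p = 0.0298). Bok was at -0.13 after the correction (limma adjusted p = 0.163), and without off replicate 2 it was at -0.24 (limma adjusted p = 0.16). By limma, 0 of 6 CA2 genes passed (1 at an unadjusted p under 0.05), with the smallest p for the calmodulin-binding Pcp4 (-0.22 ± 0.06, SE, adjusted p = 0.0622), and 0 of 5 genes of hilar mossy cells (1 unadjusted), with the smallest p for the neuropeptide gene Nmb (-0.21 ± 0.05, SE, adjusted p = 0.0547). Immature granule neuron genes mark newborn cells within the dentate gyrus. Since these libraries are not of hippocampus alone, the values of this list cannot be assigned to those cells. The list gave 0 of 6 by limma (1 unadjusted) and a median of -0.06, with the smallest p for the transcription factor gene Sox4 (-0.15 ± 0.06, SE, adjusted p = 0.17). Without on replicate 1, when 16.3% of all tested genes were called, the called genes numbered 3 of 6 dentate markers, 1 of 4 CA1 markers, 1 of 10 other dentate genes, 2 of 6 other CA1 genes, 1 of 6 CA3 genes, 1 of 6 CA2 genes, 2 of 5 mossy cell genes and 1 of 6 immature neuron genes. Pcp4 (-0.23, limma adjusted p = 0.0116) and Nmb (-0.22, limma adjusted p = 0.0138) were among them.

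Neocortical layer genes, which share pyramidal neurons with CA1, had a median of 0.01 over 8 genes and 0 calls by limma (1 at an unadjusted p under 0.05), the smallest p being that of Lamp5 (-0.11 ± 0.05, SE, adjusted p = 0.214). Striatal genes had a median of -0.13 over 8 genes with 0 calls by limma (4 unadjusted), the smallest p being that of the adenosine receptor gene Adora2a (-0.25 ± 0.08, SE, adjusted p = 0.0939). Cerebellar genes had a median of 0.15 over 6 genes with 0 calls by limma (3 unadjusted), the smallest p being that of Fat2 (0.36 ± 0.09, SE, adjusted p = 0.0515). Of 6 olfactory bulb genes 4 passed, all lower in on, with the smallest p for Doc2g (-0.47 ± 0.07, SE, limma adjusted p = 0.00801), then Omp and S100a5. Doc2g was at -0.42 without off replicate 2 and did not pass (limma adjusted p = 0.0691), while Omp and S100a5 passed (0.00422 and 0.038). After the correction Doc2g, Omp and S100a5 passed (limma adjusted p = 0.0276, 0.0302 and 0.0494). Th, which also passed with all libraries, missed in both settings (limma adjusted p = 0.0911 and 0.103). With 1 library left out, the highest limma adjusted p was 0.0571 for Omp and 0.0955 for S100a5. By limma, 0 of 6 oligodendrocyte genes passed (0 unadjusted, smallest p for Mog, adjusted p = 0.285). Of 6 microglia genes 0 passed by limma (1 unadjusted, Tmem119, adjusted p = 0.241), and of 5 endothelial genes 0 passed (1 unadjusted, Cldn5, limma adjusted p = 0.227). Without on replicate 1, when 16.3% of all tested genes were called, 3 of 6 cerebellar, 3 of 5 endothelial and 1 of 8 neocortical genes were called higher in on. In the same fit 5 of 6 olfactory bulb, 3 of 8 striatal, 2 of 6 oligodendrocyte and 1 of 6 microglia genes were called lower in on; the astrocyte, meningeal and choroid plexus lists gave no further call. Fat2 was then at 0.46 (limma adjusted p = 0.000125), Adora2a at -0.29 (0.015), Tmem119 at -0.21 (0.0239) and Mog at -0.14 (0.0299).

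**Figure D4:**
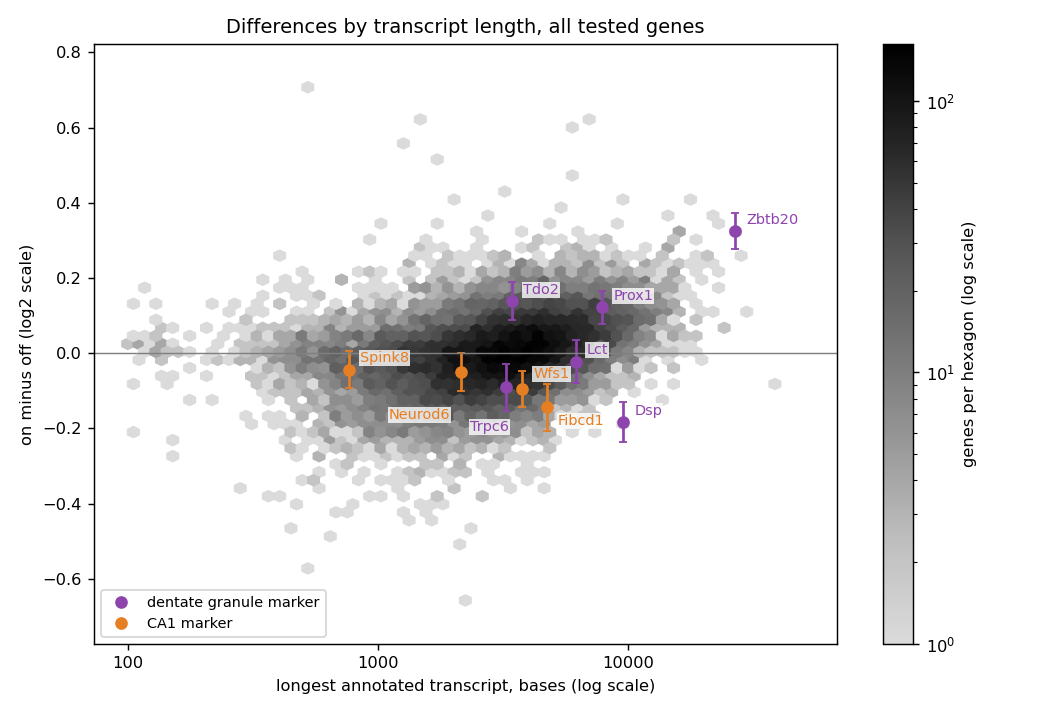
Difference, on minus off (log2 scale), against the length of the longest annotated transcript (bases, log axis) for all tested genes with a length (grey hexagons, darker for more genes), with dentate markers in purple and CA1 markers in orange, whiskers SE. Differences rise with length over all genes; Zbtb20 sits at the long end at 0.33, and Dsp lies at -0.18.

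Over all tested genes, Spearman's rho of the difference with transcript length was 0.391, and with GC content it was -0.376. These are correlations across genes, which share the same 7 libraries. The median length of the markers' transcripts was 4269 bases, against 3158 over all tested genes, and their median GC content was 46.1%, against 49.5%. After the length and GC correction, when 0.52% of all tested genes were called, 0 of the 10 markers passed by limma and 3 had an unadjusted p under 0.05. With the correction and without on replicate 1, Zbtb20 (0.12, limma adjusted p = 0.0343), Dsp (-0.20, 0.0284) and Fibcd1 (-0.16, 0.048) passed, when 9.18% of all tested genes were called.

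The genes whose values were most like those of a marker over the 7 libraries, by Pearson's r and as a description only, were Kcna1 for Zbtb20 (r = 0.993), Zfp429 for Prox1 (0.977), Mocs3 for Dsp (0.990) and Gnl1 for Fibcd1 (0.994). For the others they were Gadd45gip1 for Wfs1 (0.988), Arg2 for Lct (0.988), Wdr61 for Spink8 (0.985), Hfe2 for Neurod6 (0.982), D3Ertd254e for Tdo2 (0.972) and Srsf9 for Trpc6 (0.955). With 7 libraries such values are common: 688 genes had r above 0.9 with Fibcd1, 414 with Zbtb20 and 21 with Trpc6.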

How the data were processed

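The deposited table holds regularized logarithms (rlog) on the log2 scale, per its name, 1 column per library, for 48526 Ensembl genes in 7 libraries (4 on, 3 off). The submitters' processing notes name Subread 1.5.3, DESeq2 1.16.1, STAR 2.5.2, BWA 0.7.14-r1136, cutadapt 1.9.1 and the build GRCm38, with no role for any. No source used here gives the annotation or says whether the counting used strand. Per the labels, the library kit was TruSeq Stranded mRNA. The rlog shrinks differences of low genes, and with no counts the depth per library is unknown. GENCODE M21 gave symbols, positions and, for the longest transcript, length and GC content, and RefSeq gave the promoters, for 9 of the 10 markers.

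Genes with a mean of 3 or more (17896) entered limma 3.58.1 (R 4.3.3) with group as the term and a variance trend. Tests were two-sided, and p-values were adjusted after Benjamini and Hochberg over all genes tested, at a threshold of 0.05. The length and GC correction removed a smooth trend per library, from mgcv 1.9.3, separately for 3 classes of mean level. Other alternatives were no filter, a mean of 5, median centring, quantile normalization, no variance trend, array weights, a replicate block and leaving out each library. No 2 libraries held identical values. In simulated data for this comparison (17896 genes), limma recovered 48% of 50 genes changed by 0.2, 88% of 50 changed by 0.4 and all of those changed by 0.8 or 1.6, with 11 false calls. The simulated noise was independent between genes, with no length trend and no library that stood apart, unlike the real libraries. With a length trend added to the simulated on libraries, false calls numbered 3995 before the length and GC correction and 50 after it. That trend was linear in log2 length, the same in every on library and without a GC part, unlike the real libraries. These counts therefore do not show how well the correction works on the real data. Named genes were all markers, the genes that passed or had the smallest p in each list, and the gene most like each marker, leaving out model genes. The markers and lists were chosen with earlier results of these data known.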

Additional observations from a re-analysis of the deposited data

Results flagged for a closer look

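A gap test of the 4 on libraries, run on 32 values (the markers, the mean deviations of the lists, the principal component and the length trend), singled out 5. Chance alone singles out 1 in 20 such groups, or 1.6 of the 32. In all 5 the library far from the rest was on replicate 1. The 32 values come from the same libraries and are not independent, so the 5 cannot be counted as separate findings. Its score on the first principal component was -4.104, where on replicates 2 to 4 had 7.191 to 9.151. Its rho with transcript length across genes was -0.0592, where those had 0.2741 to 0.2908. Its mean deviation was -0.2174 for endothelial genes (0.0821 to 0.1354 in on replicates 2 to 4), 0.1313 for choroid plexus genes (-0.0653 to -0.0401) and -0.0951 for nuclear RNA genes (0.1915 to 0.2494). None of the 10 markers was singled out.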

How the results depend on the processing

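Of 160 marker values under 16 alternatives, 148 kept their direction and their side of the threshold, 7 passed where the value given above did not, 3 no longer passed and 2 turned their sign, Lct (0.00612) and Neurod6 (0.0204), both without off replicate 2; with 1 library left out they ranged over -0.0512 to 0.00612 and -0.106 to 0.0204. The count of all genes called, 466, was 7 with no filter, 237 with no variance trend, 2215 with array weights, 30 with the replicate block, 93 after the length and GC correction and 1642 after it without on replicate 1; it ranged over 43 to 2917 with 1 library left out. The cause was not tested. The count of markers called, 1 (Zbtb20), was 0 with no filter, with the replicate block and after the correction, 2 (Dsp and Zbtb20) with no variance trend and with array weights, 3 (with Fibcd1) after the correction without on replicate 1, and ranged over 1 to 4 with 1 library left out. The 4 were Prox1, Dsp, Zbtb20 and Fibcd1, without on replicate 1. Same-numbered on and off libraries did not deviate together (r of -0.2285, -0.1004 and 0.0176 across genes for numbers 1 to 3). These deviations are centred within each small group, so they cannot decide whether the numbers pair the samples. No source used here says whether they do. With the replicate block Zbtb20 was at 0.32 ± 0.06 (SE) and did not pass (limma adjusted p = 0.0772). Median centring, quantile normalization and a mean of 5 left 1 marker called, Zbtb20. With no counts, depth sets no stated limit.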
